A study of Arabidopsis thaliana with 6 samples.

Results

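AT3G17380, AT2G32870 and AT2G32880 are 3 Arabidopsis thaliana genes of the MATH/TRAF-like family, chosen by name because their array signal was far lower in the apl mutant than in wildtype. Each is paired with a single probe set, so the genes make up 3 of the 16411 distinct genes that the platform annotation names singly. Transcripts were measured in cotyledons of 3 apl samples and 3 wildtype samples, 1 array each. All cotyledons came from seedlings grown for 6 days, and all were then kept for 72 h in a medium holding 3 agents, the auxin 2,4-D (1.25 mg/L), the cytokinin kinetin (0.25 mg/L) and the GSK3 inhibitor bikinin (10 µM). This culture drives leaf cells to form vascular cells, and the mutant was compared with wildtype to find transcripts that need APL there. The wildtype is Col-0, whereas the labels give neither the allele nor the background accession of apl. They also do not say whether replicates were separate cultures, so errors and p-values cover no more than the spread among these arrays, and that spread may be technical.

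APL is a MYB-type transcription factor needed for phloem identity, and in apl plants cells in phloem positions fail to become sieve elements and companion cells. The MATH domain is named after meprins and TRAF proteins, and in animal TRAF adaptors this fold holds the peptides to which the protein binds. Plants have many genes in which the MATH domain stands alone, as well as genes that join it to another domain. BPM proteins join it to a BTB domain and bring substrates to CUL3-type ubiquitin ligases, UBP12 and UBP13 join it to a deubiquitinating enzyme, and RTM3 is a MATH protein that restricts long-distance movement of potyviruses in the phloem. The annotation used here gives the 3 genes no name beyond a locus code, and no molecular role is given for them here.

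AT3G17380, on chromosome 3, had log2 signals of 5.64, 6.26 and 4.60 on apl arrays 1, 2 and 3, against 11.33, 11.36 and 11.20 on wildtype arrays 1, 2 and 3. It was bright and nearly constant in wildtype, with a range of 0.16, and spread over 1.66 in apl, where array 3 was lowest and array 2 highest. The groups lay 4.94 log2 units apart at their nearest values. Means were 5.50 ± 0.84 in apl and 11.30 ± 0.09 in wildtype (SD, n = 3 each), a difference of -5.79 (SE 0.40), or 55.5-fold less signal in apl. Signal was reduced but not down to the dimmest probe sets: AT3G17380 stood at the 43.5th, 50.3rd and 33.9th percentile of its apl arrays and between the 96.6th and 97.0th of its wildtype arrays. These ranks also depend on how brightly each probe set hybridises. The word lost, by which the 3 genes were grouped, therefore goes further than the data for AT3G17380. In whole cotyledons, fewer cells that express a gene and less transcript in each cell cannot be told apart.

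AT2G32870 and AT2G32880 lie side by side on chromosome 2, with 0 genes between them in the TAIR10.1 gene order. AT2G32880 had log2 signals of 2.86, 3.28 and 3.64 on apl arrays 1, 2 and 3, against 9.64, 8.95 and 8.19 on wildtype arrays 1, 2 and 3. The nearest apl and wildtype values lay 4.55 apart. AT2G32880 averaged 3.26 ± 0.39 in apl and 8.93 ± 0.73 in wildtype (SD, n = 3 each), which differ by -5.67 (SE 0.39), or 50.8-fold.

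AT2G32870 had log2 signals of 2.29, 2.28 and 3.09 on apl arrays 1, 2 and 3, against 7.88, 7.53 and 5.73 on wildtype arrays 1, 2 and 3. Wildtype array 3 was well below the other wildtype arrays, yet still 2.64 above the highest apl array. The means were 2.56 ± 0.46 in apl and 7.05 ± 1.15 in wildtype (SD, n = 3 each). They differ by -4.49 (SE 0.56), a 22.5-fold lower signal that became 35.5-fold without wildtype replicate 3. Wildtype arrays ran in the same order for both neighbours, array 1 highest and array 3 lowest. For AT3G17380, whose apl arrays lay above the 25th percentile, the apl minus wildtype difference was -5.69, -5.10 and -6.59 in replicates 1, 2 and 3.

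Both neighbours lay under the 25th percentile of the array on 3 of 3 apl arrays. That percentile is a cut chosen here and not a measured background, and RMA values carry no detection call. Signals under it may be background, so the order of the apl arrays is not read for either neighbour. The folds of both neighbours are therefore folds of signal, and the fold in transcript is not known. The apl arrays lay under all wildtype arrays for 3 of 3 genes, as they did for 5.32% of all probe sets. The genes were picked for this difference, so nothing is read from that count and no test is given for them. Whether probes of AT2G32870 and AT2G32880 take up each other's transcript was not tested.

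**Figure D1:**
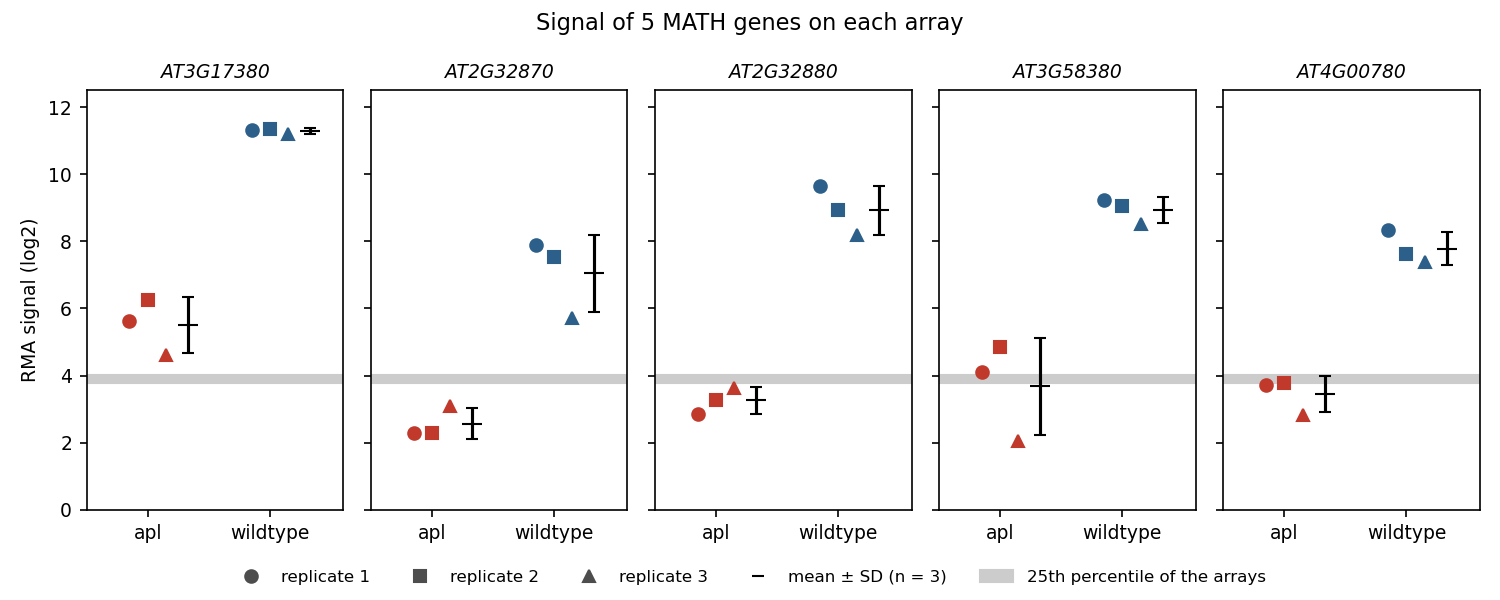
RMA signal (log2) on each apl and wildtype array for AT3G17380, AT2G32870, AT2G32880 and the other 2 MATH genes called lower in apl, AT3G58380 and AT4G00780. Points are arrays, marked by replicate number, bars are mean ± SD (n = 3), and the grey band spans the 25th percentiles of the 6 arrays; no apl point reaches a wildtype point, and AT3G17380 alone has all its apl points above the band.

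The rest of the family was then examined with a list of 87 MATH or TRAF-like genes written from general knowledge of these domains, since the annotation names few of them. Apart from the 3 genes above, 72 were measured. Across all 38408 probe sets, limma called 202 (0.526%) lower and 30 (0.0781%) higher in apl at a Benjamini-Hochberg adjusted p under 0.05, and with the replicate number as a block 340 (0.885%) and 81 (0.211%). Of the 72 genes, 2 were called lower and 0 higher, and 4 were lower and 2 higher at an unadjusted p under 0.05 (limma). Among all 16411 singly named genes the share called lower was 0.817%, and 881 were lower and 503 higher at an unadjusted p under 0.05 (limma). Nothing is read from the unadjusted counts of the family. The median log2 difference of the 72 family genes was 0.01, against 0.10 over all probe sets and 0.08 over all named genes. After quantile normalization it was -0.03, against 0.05 over all probe sets, and after median centring -0.05 against 0.05. The plot of the difference against wildtype signal shows the 2 called genes beside the 3 chosen ones, all between -5.79 and -4.34, while the other 70 genes lay between -1.36 and 1.09. On all 6 arrays 39 of the 72 genes lay under the 25th percentile, where an absent call carries little information, and 21 lay above it on all 6.

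**Figure D2:**
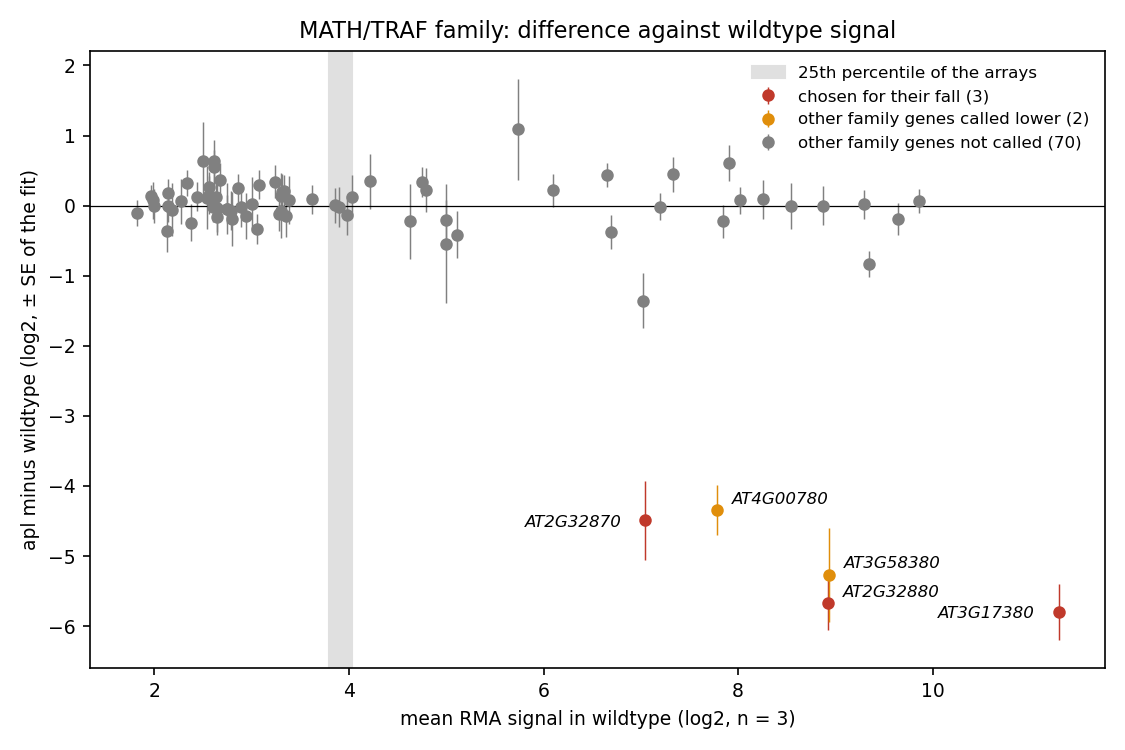
Difference between apl and wildtype (log2, ± SE of the fit) against mean wildtype signal (log2, n = 3) for the 75 measured genes of the MATH/TRAF list. Each point is a gene, and the grey band spans the 25th percentiles of the 6 arrays; 5 labelled genes lie at -4.34 or below, and the other 70 between -1.36 and 1.09.

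Both called genes are listed among those with a MATH domain and no other joined domain. AT4G00780, on chromosome 4, had log2 signals of 3.73, 3.78 and 2.83 on apl arrays 1, 2 and 3, against 8.35, 7.63 and 7.39 on wildtype arrays 1, 2 and 3. All 3 apl arrays lay below the 25th percentile. Wildtype array 3 was the lowest of its group, and that array also had the lowest median signal of all arrays, 6.05. AT4G00780 averaged 3.45 ± 0.54 in apl and 7.79 ± 0.50 in wildtype (SD, n = 3 each), and fell by 4.34 (SE 0.36), or 20.3-fold in signal (limma, adjusted p = 0.0082), and as for the pair on chromosome 2 the fold in transcript is not known. Its call ended without apl replicate 1 (adjusted p = 0.052) and without wildtype replicate 2 (adjusted p = 0.0592).

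AT3G58380, on chromosome 3, had log2 signals of 4.11, 4.85 and 2.06 on apl arrays 1, 2 and 3, against 9.24, 9.07 and 8.51 on wildtype arrays 1, 2 and 3. Of its apl arrays, array 3 lay under the 25th percentile and array 1 stood just above its own, at 4.11 against 4.03. The order of its apl arrays is therefore not read. AT3G58380 averaged 3.67 ± 1.45 in apl and 8.94 ± 0.38 in wildtype (SD, n = 3 each), and fell by 5.26 (SE 0.67), or 38.4-fold in signal (limma, adjusted p = 0.0289). The fold became 57.8 when apl replicate 2 was left out and 22.0 when apl replicate 3 was. These are folds of signal, and with apl array 3 under the 25th percentile the fold in transcript is not known. Leaving out apl replicate 1 gave an adjusted p of 0.12, and leaving out wildtype replicate 1, 2 or 3 gave 0.143, 0.161 and 0.0794, so that only the arrays apl 2 and apl 3 could be left out with the call kept.

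AT3G58380 belongs to a long run of MATH genes on chromosome 3, from AT3G58200 to AT3G58440, which also holds RTM3. Of this run 22 genes were measured under a name, RTM3 not among them, and AT3G58380 was the 1 gene called (limma). The other 21 lay between -0.54 and 0.61, with a median of 0.13, and 15 of them were under the 25th percentile on all 6 arrays. AT3G58370 next to AT3G58380 had log2 signals of 2.80, 3.66 and 2.59 in apl, against 2.41, 3.57 and 3.01 in wildtype. AT3G58400, the next measured gene of the run on the other side, had 2.14, 3.34 and 2.34 in apl and 2.72, 3.34 and 2.34 in wildtype. AT3G58390, which is not on the MATH list, stands directly after AT3G58380 and before AT3G58400. It had 3.57, 3.14 and 2.12 in apl and 2.92, 3.26 and 2.79 in wildtype. These genes beside AT3G58380 were thus dim in both groups. AT3G58270, by contrast, was above the 25th percentile on all 6 arrays, with 8.61, 8.07 and 8.87 in apl and 7.79, 7.79 and 8.13 in wildtype, a difference of 0.61 (SE 0.26) that was not called (limma, adjusted p = 0.545).

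Few genes of the other TRAF-like kinds were measured, and none was called. As 0.817% of all named genes were called lower (limma), no contrast with the lone MATH genes is read from this. Of the 2 MATH-UBP genes, UBP12 and UBP13, 0 were measured. Of the 15 genes listed as SINAT and SINA-like, which join a RING ubiquitin ligase domain to a TRAF-like fold, 13 were measured and 0 were called. At an unadjusted p under 0.05, 1 was lower and 1 higher (limma), against the 881 and 503 of all 16411 named genes. AT4G27880, of the SINAT type, had 8.63, 8.59 and 8.32 in apl against 9.26, 9.49 and 9.29 in wildtype, groups that did not overlap, with a difference of -0.83 (SE 0.18, limma adjusted p = 0.16). AT1G66620, of the SINA-like type, had 6.99, 7.20 and 7.09 in apl against 6.60, 6.76 and 6.60 in wildtype, a difference of 0.44 (SE 0.17, limma adjusted p = 0.515). BPM3, the 1 measured gene of 6 for MATH-BTB proteins, averaged 7.18 ± 0.23 in apl and 7.20 ± 0.11 in wildtype (SD, n = 3 each). AT1G04300 and AT5G43560, listed as MATH proteins with a long C-terminal region, differed by 0.00074 (SE 0.28) and -0.0016 (SE 0.33). ZW9, of the genes with a lone MATH domain, had 5.62, 5.88 and 5.48 in apl against 7.58, 7.37 and 6.10 in wildtype. Its difference of -1.36 (SE 0.39) was not called (limma, adjusted p = 0.332), and wildtype array 3 stood nearest to the apl arrays.

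Of the genes listed as partners or targets of MATH proteins, 1 of 15 was measured. This was AT3G18770, listed as an ATG13-type autophagy gene, with 8.66, 8.49 and 7.39 in apl against 9.15, 9.42 and 8.30 in wildtype. It was lower in apl within each of the 3 pairs of arrays, although the groups overlapped. Its difference of -0.78 (SE 0.43) was not called (limma, adjusted p = 0.674, or 0.137 with the replicate block).

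The genes beside the members were compared next. BGLU33, a beta-glucosidase gene that stands directly before AT2G32870 on chromosome 2, had log2 signals of 9.60, 10.41 and 5.08 on apl arrays 1, 2 and 3, against 13.12, 13.13 and 12.99 on wildtype arrays 1, 2 and 3. All apl arrays were at least 2.57 below wildtype, but apl array 3 was far below the other apl arrays. The difference was -4.71 (SE 1.26) and was not called (limma, adjusted p = 0.275). Without apl replicate 3 it was -3.07, and was called (limma, adjusted p = 0.0253). Leaving out apl replicate 2 gave -5.74 and leaving out apl replicate 1 gave -5.33, with limma adjusted p-values of 0.146 and 0.41 and no call. BGLU33 had its lowest apl value on array 3, as AT3G17380 did. That also held for genes outside the family, such as AT3G18770, so nothing is read from it.

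Farther from the pair, AT2G32850 differed by -0.05 (SE 0.18) and the next measured genes on the other side, AT2G32905 and AT2G32970, by 0.04 (SE 0.18) and -0.71 (SE 0.19), none of them called (limma). AT2G32905 was under the 25th percentile on all arrays. Of the 12 measured genes plotted around the pair, 1 was called, AT2G32790, which is named after its value was seen. It had 3.71, 4.21 and 2.75 in apl against 6.06, 6.93 and 6.07 in wildtype, and fell by 2.79 (SE 0.42, limma adjusted p = 0.0492). That call ended when any array but apl replicate 2 was left out, with adjusted p-values of 0.0767 to 0.203. AT2G32790 lay under the 25th percentile on 2 of 3 apl arrays, so the size of its fall in transcript is not known. Beside AT3G17380, differences were -0.46 (SE 0.19) for AT3G17370, 0.30 (SE 0.18) for AT3G17365, 0.06 (SE 0.44) for AT3G17400 and -0.35 (SE 0.20) for AT3G17410, and none was called (limma). AT3G17370 was under the 25th percentile on all 6 arrays, and AT3G17400 on 1 apl and 2 wildtype arrays. A fall of the size seen at AT3G17380 could therefore not have been seen in either. AT3G17365 and AT3G17410, above it on all 6 arrays, showed nothing of that size.

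**Figure D3:**
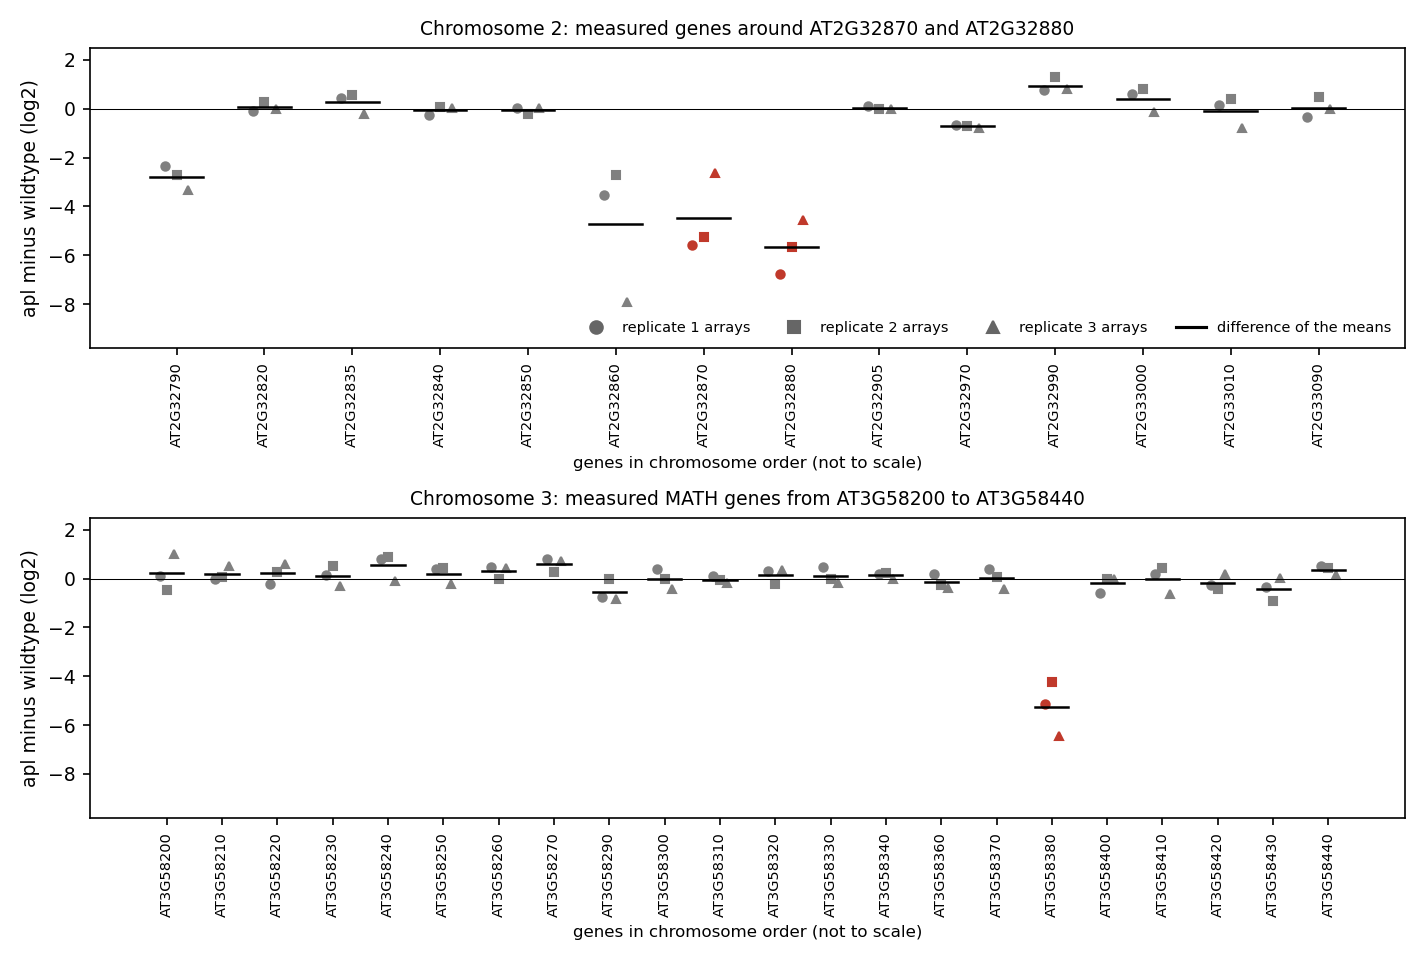
Apl minus wildtype (log2) for measured genes in chromosome order, not to scale, around AT2G32870 and AT2G32880 (top) and along the run of MATH genes on chromosome 3 (bottom). At the bottom only genes of the MATH/TRAF list are shown. Points are the 3 same-numbered pairs of arrays and black lines the difference of the means; at the top AT2G32860 (BGLU33), AT2G32870 and AT2G32880 stand at -4.71, -4.49 and -5.67, and at the bottom AT3G58380 stands alone at -5.26.

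To see which genes ran most like each member, log2 values were centred on their own mean over the 6 arrays, and the Euclidean distance to each of the other 16410 named genes was taken. This describes shape and size together and is governed mainly by the gap between groups, for which the members were chosen. A small distance over these arrays also favours a shared order of arrays within a group, so nothing is read from a shared order. AT5G45520, AT5G39471 and AT3G24110 were nearest to AT3G17380, at distances of 0.73, 0.96 and 1.02 log2 units. AT5G45520 had 4.83, 5.99 and 3.58 in apl against 10.89, 10.69 and 10.08 in wildtype. In each of these 3 genes apl array 2 was highest and apl array 3 lowest, the order of AT3G17380. AT5G45520 and AT3G24110 each lay under the 25th percentile on 1 of 3 apl arrays. AT3G58380 was 10th nearest, at 1.18.

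AT1G64370, AT1G67860 and AT2G40050 were nearest to AT2G32880, at 0.80, 0.90 and 1.40. AT1G64370 had 4.99, 4.90 and 4.72 in apl against 11.07, 10.24 and 9.80 in wildtype, with wildtype arrays in the order of AT2G32880. For AT2G32870 the nearest were AT4G14020, AT1G67870 and AT1G26450, at 1.29, 1.49 and 1.51. AT4G14020 had 2.95, 2.97 and 3.33 in apl against 7.27, 6.99 and 6.14 in wildtype, also with array 3 lowest among wildtype arrays. Of the 2 neighbours, AT2G32870 was 5th nearest to AT2G32880 and AT2G32880 was 6th nearest to AT2G32870, at a distance of 1.67. AT3G17380, on another chromosome, was 8th nearest to AT2G32880, at 1.84, and 76th nearest to AT2G32870, at 2.85. All the members were chosen for a large gap between groups, so nothing is read from their ranks for each other.

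**Figure D4:**
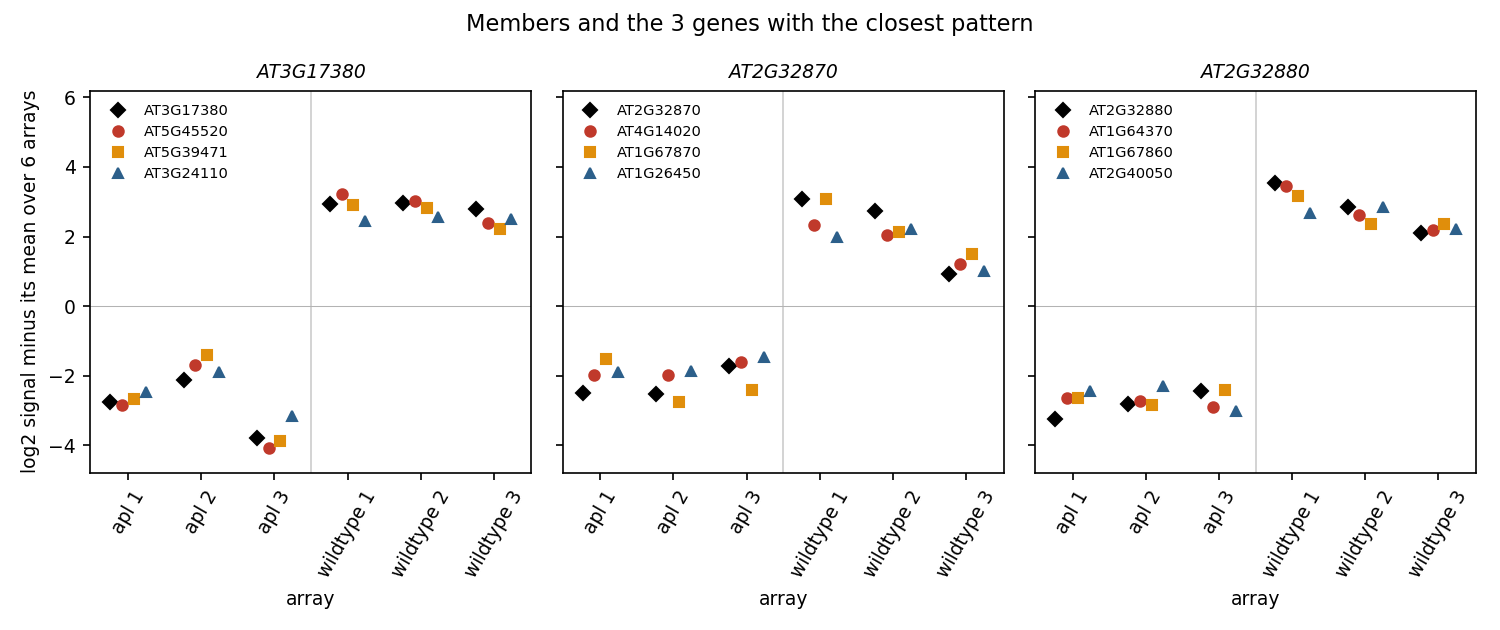
Log2 signal minus its mean over the 6 arrays for each member (black diamonds) and the 3 named genes nearest to it, on apl arrays 1 to 3 and wildtype arrays 1 to 3. Around AT3G17380 all 4 genes are highest on apl array 2 and lowest on apl array 3 among apl arrays, an order that the choice by distance favours. The black points of AT2G32870 and AT2G32880 are lowest on array 3 among wildtype arrays, and their apl points come from signals under the 25th percentile.

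Markers of the cell types in the culture gave 1 call. APL itself has 0 probe sets paired with it, so the labels could not be checked by its level, and of 10 late sieve element genes 0 were measured. Of 8 genes listed for companion cells 2 were measured, AT3G12730 and SWEET11. The list takes in genes of sucrose export such as SWEET11, so it is not read as marking 1 cell type. At an unadjusted p under 0.05 AT3G12730 was lower and SWEET11 higher (limma). AT3G12730, the 1 called gene, had log2 signals of 3.84, 2.87 and 4.08 in apl against 8.42, 7.16 and 7.06 in wildtype, and fell by 3.95 (SE 0.46, limma adjusted p = 0.0223). That call ended without apl replicate 1 (adjusted p = 0.106) and without wildtype replicate 1, 2 or 3 (0.0768, 0.107 and 0.0562). AT3G12730 lay under the 25th percentile on 2 of 3 apl arrays, so the size of its fall in transcript is not known. SWEET11, a sucrose exporter, had a mean of 10.81 ± 0.80 in apl and 8.56 ± 1.54 in wildtype (SD, n = 3 each). This 4.76-fold higher signal in apl was not called (limma, adjusted p = 0.435, or 0.132 with the replicate block). It was higher in apl in all 3 pairs of arrays and the groups did not overlap, and the log2 difference of 2.25 was 3.01 without wildtype replicate 1 and 1.47 without wildtype replicate 3. None of 6 measured of 16 early phloem genes was called (median 0.36, 1 higher at an unadjusted p under 0.05), and none of 4 measured of 16 xylem genes (median -1.31, 4 lower at an unadjusted p under 0.05, limma). At that threshold 881 of all 16411 named genes were lower and 503 higher. The mean log2 signal of the xylem genes was 9.03 to 10.64 on apl arrays and 10.72 to 11.55 on wildtype arrays, and that of the early phloem genes was 7.94 to 8.84 on apl arrays and 8.26 to 8.54 on wildtype arrays. The photosynthesis genes RCA and LHCB4.1, 2 measured of 8, which mark the leaf tissue, were present in both groups, with a mean of 9.52 to 9.62 in apl and 9.23 to 9.85 in wildtype. The epidermal and guard cell list had 3 of 4 genes measured and 0 called, with 0 at an unadjusted p under 0.05 (limma). Whether shifts in cell makeup have a part in the falls of the MATH genes was not tested.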

How the data were processed

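The authors deposited log2 signals for 38408 probe sets on 6 Affymetrix arrays of 1 colour (3 apl, 3 wildtype). RMA, which the submitters' processing notes name with no version, corrects background, equalises arrays and summarises probes. Names came from the platform annotation: 16722 probe sets have 1 gene, 759 several and 20927 none, and 16574 of the first matched a RefSeq locus (TAIR10.1, used for names and gene order). Where a gene had several probe sets the brightest was used. The number of arrays limits the precision. Median log2 signal per array was 6.05 to 6.25, lowest on wildtype array 3 and highest on apl array 1.

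No further scaling was applied. Apl was set against wildtype in limma 3.58.1 (R 4.3.3, lmFit, then eBayes), 2-sided and over all probe sets. The fit was also run on simulated data with independent noise on each array. Those data lack the likeness of same-numbered arrays described below, so they do not test the fit under it. A call is a Benjamini-Hochberg adjusted p under 0.05. Figures used matplotlib 3.10.9. Genes named are the members, other family genes that were called, had an unadjusted p under 0.05 or were among the 3 largest differences, the nearest measured neighbours, the 3 closest patterns and list genes. The members and lists were chosen with earlier results of these data known, and nothing in the files checks the domain classes of the list. Protein and promoter sequences were not analysed here.

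Within-group deviations had a correlation of 0.40 to 0.45 for apl and wildtype arrays of the same replicate number and of -0.29 to -0.16 for the others, and same-numbered arrays shared 740 to 940 identical values against 0 to 2. The numbers were therefore taken as pairing the arrays, from the data and not from the labels, and the pairing may lie in the processing. The main limma fit had no pairing term, so p-values are unpaired unless the replicate block is named. Alternatives were the replicate block, quantile normalization, median centring, removal of dim probe sets (mean under the 25th percentile), eBayes with trend and robust prior, averaging probe sets per gene, and omitting each array in turn.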

Additional observations from a re-analysis of the deposited data

How the results depend on the processing

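With the replicate block the probe sets called lower and higher in apl (limma) numbered 340 and 81 in place of 202 and 30, and eBayes with trend and robust prior gave 314 and 98. Higher calls were 61 with dim probe sets left out, with fewer probe sets tested. Leaving out 1 array gave 20 to 308 lower and 1 to 22 higher calls, with fewer samples. The count of the 72 other family genes called lower was 0 to 2 without 1 array, 0 without apl replicate 1 or wildtype replicate 2 and 1 without wildtype replicate 1 or 3, and it stayed at 2 under the other alternatives, the block included. Without 1 array the difference ranged from -6.18 to -5.35 for AT3G17380, from -5.15 to -4.07 for AT2G32870 and from -6.04 to -5.31 for AT2G32880, and that of AT4G00780 and AT3G58380 stayed below -4. The block changed no call of a gene for which the text gives a test. CLE44 passed with trend and robust prior, at an adjusted p of 0.0242 (limma). For these other moves the cause was not tested. Differences near 0 changed sign without a call. After median centring SPCH was -0.015, MUTE -0.010 and AT2G32905 -0.022, and after quantile normalization AT2G32905 was -0.032 and AT3G17400 -0.0020. When 1 array was left out, RCA lay between -0.41 and 0.016, MUTE between -0.033 and 0.14, SPCH between -0.19 and 0.18, and the range was, for AT3G17400, from -0.27 to 0.49, for AT2G32850 from -0.13 to 0.014 and for AT2G32905 from -0.062 to 0.097. Signals under the 25th percentile, as of AT2G32870 and AT2G32880 in apl, limit what can be said of fold.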

Other observations

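AT2G05420, another gene with a lone MATH domain, is named after its values were seen. It had log2 signals of 6.11, 6.29 and 8.07 on apl arrays 1, 2 and 3, against 4.65, 5.54 and 7.01 on wildtype arrays 1, 2 and 3, so the groups overlapped, while each apl array lay 0.76 to 1.46 above the wildtype array of its number. The difference of 1.09 (SE 0.72) was not called (limma, adjusted p = 0.739, or 0.0953 with the replicate block). Of all named genes, the one whose values over the 6 arrays ran closest to AT4G00780 was MYR2 (AT3G04030), a MYB-type relative of APL, at a distance of 0.85 log2 units, with 3.60, 4.02 and 2.85 in apl against 7.80, 7.38 and 7.92 in wildtype. MYR2 too is named after its values were seen. Both genes lay under the 25th percentile on 3 of 3 apl arrays, so their closeness rests mainly on the gap between groups. Within wildtype, array 3 was highest for MYR2, at 7.92, and lowest for AT4G00780, at 7.39.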
